A study of Chlamydomonas reinhardtii with 20 samples.

Results

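The transient early light genes were gene IDs of Chlamydomonas reinhardtii, a unicellular green alga. Their transcripts were high after 0.5 h of light and had lost most of that rise by 4 h. They were chosen by their levels in the complemented lines ho1C1 and ho1C2, as group means of RPKM, a read count divided by gene length and by the size of the library. The early change E was log2 of the 0.5 h mean plus 1 over the dark mean plus 1, and the late change L was the same for the 4 h mean. A member had E of at least 2 and L under 1 in both lines, and 93 of the 17737 IDs met this. Members were thus selected on the measured values of ho1C1 and ho1C2, which are given as a description. All tests were made in the wild type 4A+ and the hmox1 mutant, whose libraries took no part in the choice.

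The study had 20 libraries in 10 groups of 2. The heme oxygenase mutant hmox1 was harvested after 4 h in white light, either with biliverdin IXα (BV) at 0.1 mM or without it, and so was the wild type 4A+. The complemented lines ho1C1 and ho1C2 were sampled without BV in the dark, after 0.5 h and after 4 h of light. Every culture was grown in the dark at 22 °C on acetate medium with 0.5% methanol, the vehicle of BV, and lit groups received 150 µmol photons per square metre and second. The 4 h time stands in the sample labels, while the treatment protocol names the 0.5 h exposure alone. The sources used here do not give the construct carried by the complemented lines. 4A+ and hmox1 are analysed at 4 h alone, and their response at 0.5 h is not analysed here.

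Heme oxygenase opens the ring of heme to give biliverdin, the parent compound of the bilins, which are linear tetrapyrroles. In algae and plants, bilins are best known as the light-absorbing groups of phytochromes and phycobiliproteins, and in Chlamydomonas they have been tied to the adjustment of dark-grown cells to light. Cells moved from darkness to light change transcripts for photosynthesis, pigment synthesis, photoprotection and signalling, and many early transcripts decline again once the cell has adjusted. No name is attached to any member in the files or in the RefSeq table of assembly Chlamydomonas_reinhardtii_v5.5, which matched 71 of the 93 IDs and held 0 symbols beyond locus tags. Members are therefore given by their IDs and responses, with no statement on what their products do. For the same reason the mutation in hmox1 was not checked against the gene itself.

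All 93 members passed the filter on low values (1 RPKM or more in at least 2 libraries) among 13871 tested genes. Their high 0.5 h libraries were enough to pass it, and these add to the estimate of the spread but enter none of the comparisons. At 4 h, group means were under 1 RPKM for 6 members in 4A+ with BV and 3 without BV. In hmox1 this held for 4 members with BV and 1 without BV. Cre03.g152750 was the 1 member under 1 RPKM in all 8 libraries of 4A+ and hmox1. It is still counted below among members lower in hmox1 without BV and falling with BV in both strains, on values near the floor. Read totals are not in the table. Relative depth, estimated from the steps between low values, was lowest in replicate 2 of hmox1 without BV (0.615) and highest in replicate 2 of ho1C1 at 4 h (2.01). Over the members, replicates of hmox1 without BV differed by a median of 0.156 on the log2 scale in absolute value, against 0.0456 to 0.115 in the other groups. Libraries are labelled biological replicates with no further detail, so the spread behind each p-value is that between these samples and may be technical. It was estimated for each gene over the replicates of all 20 libraries. It is therefore not the spread of hmox1 without BV itself, where replicates differed most. In such bulk RNA, fewer cells expressing a gene and less RNA per cell cannot be told apart.

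In the complemented lines the members went up together and came down together. The median level of the 93 members in ho1C1 was 5.86 and 5.61 RPKM in the 2 dark libraries, 49.76 and 49.39 RPKM at 0.5 h, and 9.51 and 9.19 RPKM at 4 h. In ho1C2 it was 7.04 and 7 RPKM in the dark, 46.77 and 45.64 RPKM at 0.5 h, and 6.84 and 7.21 RPKM at 4 h. The median member stood 7.54-fold above dark at 0.5 h in ho1C1 and 6.06-fold in ho1C2. At 4 h the part of the rise that was left had a median of 7.78% in ho1C1 and 2.18% in ho1C2, and in each line 91 of the 93 members kept under 25% of it. All of this follows from the rule. Among the values that chose the members, E was larger in ho1C1 for 84 of them (90.3%, against 41.1% of all tested genes) and L for 78 (83.9%, against 52.8%), which is a description with no test. The 4 h mean lay below the dark mean for 5 members in ho1C1 and for 39 in ho1C2. E and L of a line use the same dark mean, so these counts are not separate observations.

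**Figure D1:**
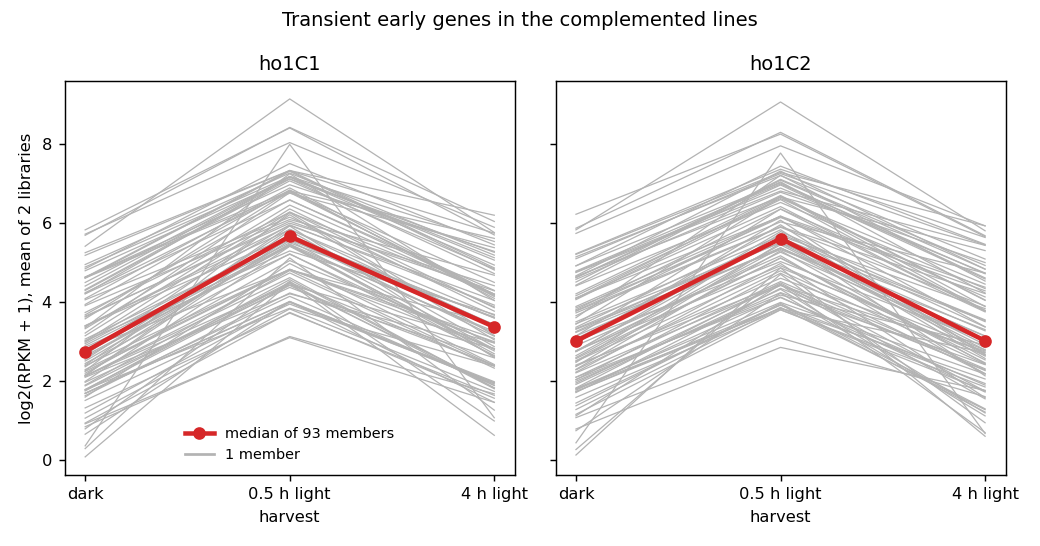
Level of each of the 93 members in darkness and after 0.5 h and 4 h of light, as log2(RPKM + 1) of the mean of 2 libraries, for ho1C1 (left) and ho1C2 (right). Grey lines are members and the red line is their median, which peaks at 0.5 h in both lines because the rule asks for it.

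The size of the early rise varied widely among the members. Cre01.g016600 stood apart, at 0.26 and 0.3 RPKM in the dark libraries of ho1C1, 271.11 and 232.42 RPKM at 0.5 h, and 1.05 and 1.14 RPKM at 4 h. Its levels in ho1C2 were 0.24 and 0.46 RPKM in the dark, 228.01 and 204.64 RPKM at 0.5 h, and 0.84 and 0.34 RPKM at 4 h. This ID was close to silent in the dark, among the abundant members at 0.5 h and close to silent again at 4 h. Its E was 7.63 in ho1C1 and 7.33 in ho1C2, and by the smaller of the E values of both lines (smaller-of-lines E) the next were g11286 with 4.43 and Cre03.g152750 with 4.40.

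The other 9 of the 12 members with the largest E were g14576, g2954, Cre12.g505100, Cre06.g281250, g15615, g17986, Cre06.g293900, Cre01.g053288 and Cre08.g379550, with smaller-of-lines E between 3.12 and 3.60. In all, 14 members had E of 3 or more in both lines. The most abundant member at 0.5 h was g15615, at 560 ± 20.2 RPKM in ho1C1 and 530.8 ± 28.1 RPKM in ho1C2 (SD, n = 2 each). It was followed by g1851, Cre12.g554400, Cre16.g657350, Cre01.g016600 and Cre16.g683550. The member with the highest mean at 4 h in the complemented lines was Cre04.g225050, at 72 RPKM in ho1C1 and 59.6 RPKM in ho1C2.

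At the threshold on E, the members just inside were Cre10.g445000 (smaller-of-lines E 2.00) and Cre06.g278350 (2.01), and the IDs just outside were g6250 (1.997) and Cre07.g339750 (1.97). At the threshold on L, the members just inside were Cre06.g293900 (larger L 0.988) and Cre08.g379550 (0.982), and the IDs just outside were Cre12.g527250 (1.001) and Cre12.g552750 (1.002). Of 241 IDs with E of at least 2 in both lines, 93 were members, 103 kept L of at least 1 in both lines and are called lasting early genes here, and 45 kept it in 1 line. Another 28 IDs had E under 1 and L of at least 2 in both lines and are called late-rising. Membership depends on scaling and on the pseudocount. The same rule on values divided by median-ratio size factors gave 159 IDs, of which 77 were among the 93, and with a pseudocount of 0.1 it gave 116 IDs, of which 73 were.

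After 4 h of light levels of the members in hmox1 and 4A+ can be set beside the 0.5 h levels of the complemented lines, which are high by choice, so that lower values are no finding. Means below those of both lines were found for 88 of 93 members in hmox1 with BV, 91 in hmox1 without BV, 90 in 4A+ with BV and 93 in 4A+ without BV. The median level of the members was 10.65 and 11.55 RPKM in hmox1 with BV, 16.03 and 16.72 RPKM in hmox1 without BV, 7.25 and 7.58 RPKM in 4A+ with BV, and 9.25 and 8.76 RPKM in 4A+ without BV. The 4 pairs of medians did not overlap. The medians of all tested genes did not overlap either and were also highest in hmox1 without BV, at 5.28 and 5.44 RPKM, against 4.14 and 4.3 RPKM in 4A+ without BV. Of the 93 members, 65 had their highest group mean in hmox1 without BV (69.9%, against 41.3% of all tested genes) and 49 their lowest in 4A+ with BV (52.7%, against 26.3%). Means above the 4 h level of both complemented lines were found for 41 members in hmox1 with BV, 71 in hmox1 without BV, 19 in 4A+ with BV and 39 in 4A+ without BV, but the rule picked members that were low at 4 h in those lines.

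**Figure D2:**
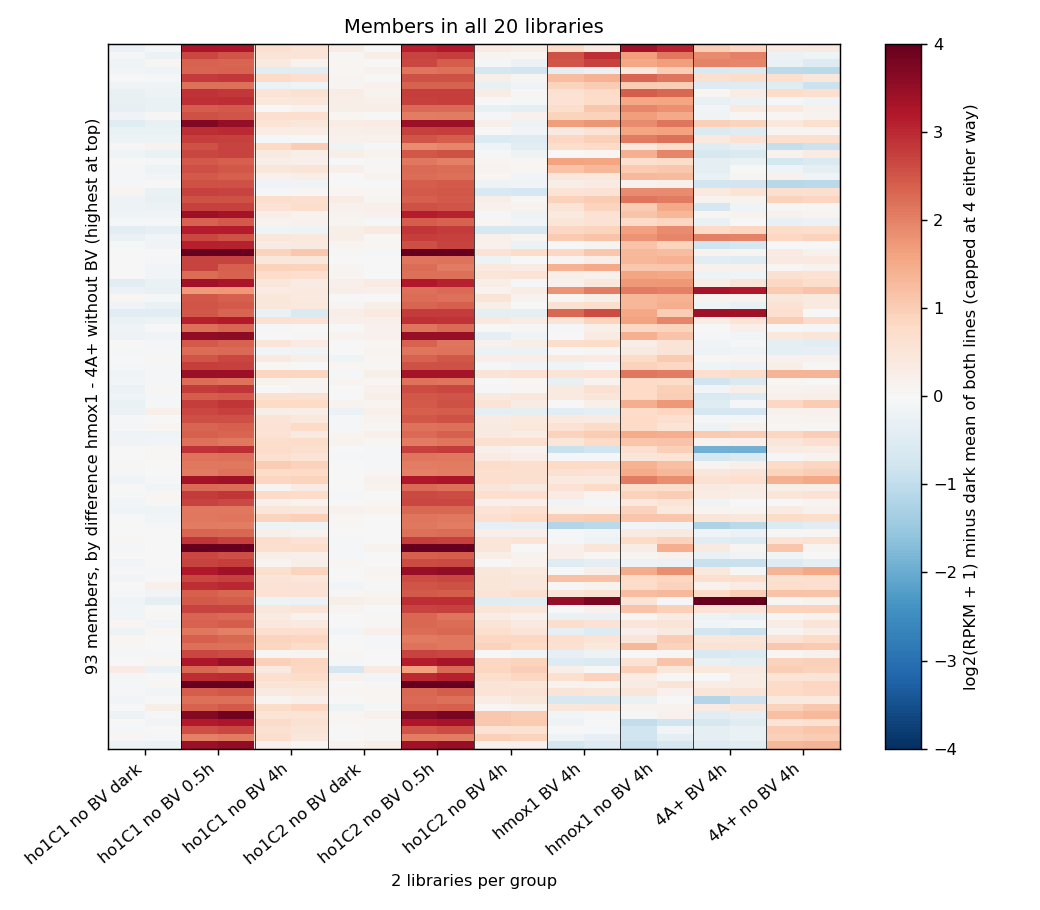
The 93 members (rows) in all 20 libraries (columns, 2 per group), as log2(RPKM + 1) minus the mean dark level of both complemented lines, with red above and blue below that level and the scale capped at 4. Rows run from the highest to the lowest difference between hmox1 and 4A+ without BV. The 0.5 h columns are red throughout by choice, and at 4 h hmox1 without BV is the group with the most red.

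The first question was how the members stood in the mutant after 4 h of light without BV. Most were higher in hmox1. By limma with a Benjamini-Hochberg adjusted p under 0.05, 69 of 93 members were higher (74.2%), against 53.5% of all tested genes, and 10 were lower, against 11.8%, so that 79 were called in either direction, against 65.2%. A difference of 2-fold or more was found for 28 members that were higher (30.1%), against 7.05% of all genes, and for 5 that were lower, against 0.8%. The median log2 difference of the members was 0.69, on the log2(RPKM + 1) scale used for every log2 difference here, and that of all tested genes 0.24. Dividing by median-ratio size factors centred all genes near 0 and brought the median of the members to 0.37, with 55 members higher and 16 lower, against 30.3% and 30.6% of all genes, and 17 and 6 of them past 2-fold, against 3.83% and 1.75%. The members' median lay 0.45 above that of all genes on deposited values and 0.38 above it after rescaling. The quartiles of the members were 0.21 and 1.09, and single members ranged from -2.12 to 2.89.

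The 3 largest rises in hmox1 were those of Cre13.g566850, Cre07.g342500 and Cre07.g342506. Cre13.g566850 had 44.59 and 36.67 RPKM in hmox1 without BV, against 4.58 and 4.64 RPKM in 4A+ without BV (log2 difference 2.89, SE 0.12, adjusted p = 1.28e-12). The hmox1 mean of 40.6 RPKM lay between the 0.5 h means of this gene, 41.3 RPKM in ho1C1 and 38.2 RPKM in ho1C2. Cre07.g342500 had 6.44 and 9.05 RPKM in hmox1, against 0.99 and 1.09 RPKM in 4A+ (2.08, SE 0.13, adjusted p = 3.15e-10). Cre07.g342506 stood close to it, at 6.65 and 7.29 RPKM in hmox1, against 1.18 and 0.8 RPKM in 4A+ (2.01, SE 0.11, adjusted p = 7.18e-11). These 2 IDs had similar levels in every group, and the sources used here do not say how reads of near-identical or overlapping genes were assigned, so they may not be separate measurements. Among abundant members, Cre12.g554400 had 244.48 and 222.93 RPKM in hmox1, against 82.04 and 69.08 RPKM in 4A+ (1.62, SE 0.14, adjusted p = 3.08e-07), and g1851 had 62.05 and 64.89 RPKM, against 25.69 and 26.04 RPKM (1.26, SE 0.05, adjusted p = 2.85e-13).

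A smaller set of members was lower in hmox1, 10 of 93 (10.8%), near the 11.8% of all tested genes. The most abundant of all members at 0.5 h, g15615, had 25.77 and 29.87 RPKM in hmox1 without BV, against 123.5 and 125.17 RPKM in 4A+ without BV (log2 difference -2.12, SE 0.07, adjusted p = 4.73e-14). Cre13.g604200 had 1 and 1.71 RPKM in hmox1, against 5.66 and 5.93 RPKM in 4A+ (-1.55, SE 0.12, adjusted p = 2.31e-09). Cre16.g683550 had 15.87 and 26.17 RPKM in hmox1, against 58.29 and 62.72 RPKM in 4A+ (-1.52, SE 0.14, adjusted p = 3.73e-07). In each case both hmox1 libraries were below both 4A+ libraries, as the rule for naming these members required. The other members lower by at least 2-fold were Cre06.g293900 (-1.45, adjusted p = 1.11e-10) and g14576 (-1.21, adjusted p = 7.93e-10). Among these 5, 3 were also among the 12 members with the largest E. That ranking uses the values that chose the members, so nothing is read from it.

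Of the 9 remaining leading members, 5 were higher in hmox1 without BV, 1 was lower and 3 were not called. Cre01.g053288 rose to 21.98 and 26.57 RPKM in hmox1, against 7.28 and 8.76 RPKM in 4A+ (log2 difference 1.49, adjusted p = 6.8e-09). For g11286 the levels were low in both, at 1.96 and 1.84 RPKM in hmox1 and 0.53 and 0.37 RPKM in 4A+ (1.00, adjusted p = 2.05e-07). Cre12.g505100, g17986 and Cre08.g379550 were higher by 0.83, 0.71 and 0.46 (adjusted p = 1.91e-06, 1.36e-07 and 3.05e-05). The lower one was Cre03.g152750, with 0.35 and 0.52 RPKM in hmox1, against 0.84 and 0.96 RPKM in 4A+ (-0.41, adjusted p = 0.000146). Cre06.g281250 and g2954 were not called, with log2 differences of -0.08 (adjusted p = 0.567) and 0.21 (adjusted p = 0.163), although each was called when 1 library of hmox1 was left out (-0.37, adjusted p = 0.00189 without replicate 2, and 0.40, adjusted p = 0.024 without replicate 1). Cre01.g016600, the member with by far the largest early rise, had 0.61 and 2.63 RPKM in hmox1, against 1.84 and 0.41 RPKM in 4A+. Its replicates differed more than the strains did (0.27, SE 0.36, adjusted p = 0.531), and without replicate 1 of hmox1 the difference was 0.86 (adjusted p = 0.0437).

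**Figure D3:**
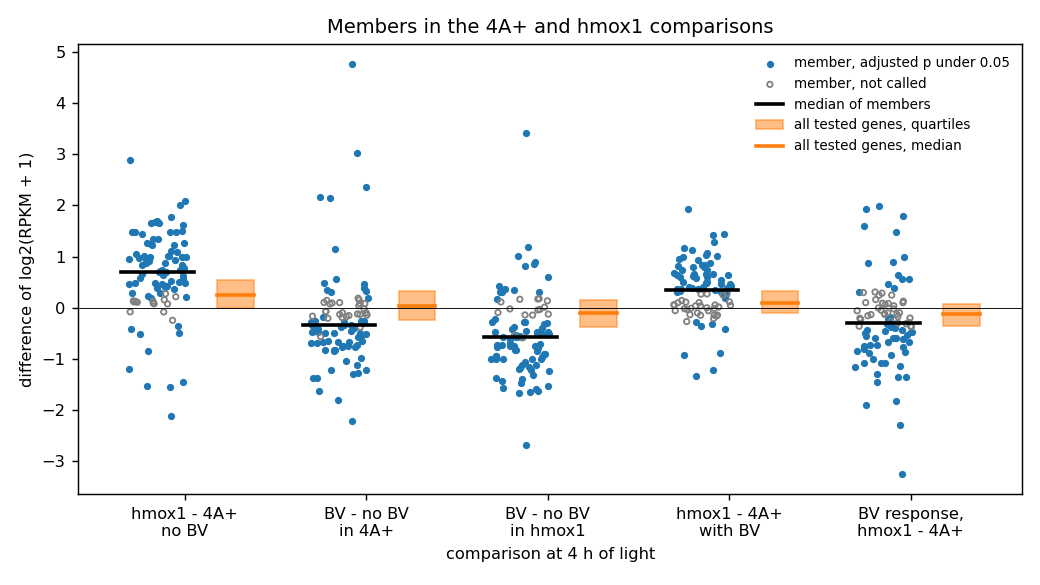
Difference of log2(RPKM + 1) for each of the 93 members in 5 comparisons at 4 h of light, filled where the adjusted p was under 0.05, with the median of the members as a black line. Orange boxes give the quartiles and median of all 13871 tested genes. The median of the members is 0.69 for hmox1 minus 4A+ without BV and -0.57 for BV minus no BV in hmox1, where all genes have 0.24 and -0.11.

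The second question was what BV did to the members in the wild type. In 4A+ 52 of 93 members fell with BV (55.9%), against 27.4% of all tested genes, and 14 rose (15.1%), against 32.1%, by the same limma test. Calls in either direction made up 66 members, against 59.5% of all genes. Past 2-fold 11 members fell, against 3.43% of all genes, and 6 rose, against 5.22%. Their median log2 difference was -0.33, beside 0.03 for all genes, with quartiles of -0.68 and 0.04. The largest fall was that of Cre09.g407200, with 0.69 RPKM in both libraries with BV, against 6.91 and 6.82 RPKM without (-2.22, SE 0.08, adjusted p = 8.87e-14). Next were g15615, with 33.7 and 35.73 RPKM with BV, against 123.5 and 125.17 RPKM without (-1.81, SE 0.07, adjusted p = 1.96e-13), and g14576, with 7.38 and 7.85 RPKM, against 24.45 and 26.6 RPKM (-1.62, SE 0.08, adjusted p = 8.52e-12). Libraries with and without BV did not overlap for any of these 3, which was a condition for naming them.

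The rises with BV in 4A+ were fewer and some were far larger than any fall. Cre13.g569400 had 122.72 and 109.97 RPKM in 4A+ with BV, against 3.24 and 3.44 RPKM without (log2 difference 4.76, SE 0.13, adjusted p = 1.09e-14). Cre13.g569500 had 83.83 and 82.45 RPKM with BV, against 12.06 and 7.2 RPKM without (3.02, SE 0.21, adjusted p = 3.72e-08). Both means with BV exceeded the 0.5 h means in the complemented lines, which were 21.1 and 30.3 RPKM for Cre13.g569400 and 42.1 and 55.6 RPKM for Cre13.g569500 in ho1C1 and ho1C2. Cre10.g445000 was the third such member, with 82.43 and 76.74 RPKM with BV, against 16.55 and 17.55 RPKM without (2.16, SE 0.08, adjusted p = 8.13e-14). Cre07.g342506 had 9.24 and 9.06 RPKM with BV, against 1.18 and 0.8 RPKM without (2.36, SE 0.11, adjusted p = 4.56e-12), and Cre07.g342500 and Cre06.g287050 were the other members up at least 2-fold (2.14 and 1.14, adjusted p = 1.37e-10 and 1.62e-09).

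Most members fell with BV in hmox1 as well. There 64 of 93 fell (68.8%), against 37.7% of all tested genes, and 14 rose, against 20.5%, by limma, or 78 in either direction, against 58.2%. With median-ratio factors 59 members fell in hmox1 and 57 in 4A+, against 29.1% and 31.6% of all genes, so no order between the strains is read from these counts. With a 2-fold limit 23 members fell (24.7%), against 3.57% of all genes, and 3 rose, against 3.76%. The median log2 difference was -0.57 for the members, with an upper quartile of -0.09 and a lowest value of -2.68, and -0.11 for all genes. The largest fall was that of Cre13.g566850, with 6.39 and 4.68 RPKM in hmox1 with BV, against 44.59 and 36.67 RPKM without (-2.68, SE 0.12, adjusted p = 2.82e-12). It was also the member most raised in the mutant without BV. Both values use the same hmox1 libraries without BV with opposite signs, so nothing is read from that. Cre16.g676600 had 17.26 and 19.51 RPKM with BV, against 63.61 and 57.83 RPKM without (-1.67, SE 0.09, adjusted p = 1.87e-11). Cre09.g407200 had 2.42 and 2.7 RPKM with BV, against 9.11 and 11.3 RPKM without (-1.65, SE 0.08, adjusted p = 7.51e-12). For all 3, both libraries with BV lay below both without, again a condition for naming them.

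Among the 12 members with the largest E, Cre08.g379550, g2954, g17986, Cre06.g281250 and Cre12.g505100 also fell with BV in hmox1. These falls were 1.58, 1.57, 1.52, 1.40 and 1.12 on the log2 scale (adjusted p between 4.01e-12 and 4.05e-08). Smaller falls, each lost when some single library was left out, were those of g11286, Cre01.g053288 and Cre03.g152750 (-0.31, -0.29 and -0.27). Cre06.g293900 and g15615 rose (0.81 and 0.18, adjusted p = 2.15e-07 and 0.0408). The changes of g14576 and Cre01.g016600 were not called (-0.14 and -0.54, adjusted p = 0.153 and 0.229). Of all 93 members, the 3 up at least 2-fold in hmox1 were Cre13.g569400, Cre13.g569500 and Cre07.g342506. Cre13.g569400 had 44.86 and 54.19 RPKM with BV, against 4.79 and 2.88 RPKM without (3.41, SE 0.13, adjusted p = 1.1e-12). Cre13.g569500 had 38.96 and 48.63 RPKM with BV, against 22.73 and 14.96 RPKM without (1.19, SE 0.21, adjusted p = 0.000259), and Cre07.g342506 had 13.9 and 16.29 RPKM, against 6.65 and 7.29 RPKM (1.01, SE 0.11, adjusted p = 5.19e-07). In all 3, both libraries with BV lay above both without, as the rule for naming them required.

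The BV comparisons in the 2 strains share no library, so the members can be counted across them. Of the 52 members that fell in 4A+ and the 64 that fell in hmox1, 42 were the same, which is 80.8% of the first list and 65.6% of the second. Over all tested genes the shared falls made up 81.1% and 58.9% of the 2 lists, close to the shares of the members. Of the 14 that rose in each strain, 6 were the same, or 42.9%, where all tested genes had 48.6% of the 4A+ list and 76.1% of the hmox1 list. Another 5 rose in 4A+ and fell in hmox1, 6 fell in 4A+ and rose in hmox1, and 8 were called in neither strain. The shares of all tested genes with these patterns were not counted, so nothing is read from them. Among changes of 2-fold or more, 5 of the 11 falls in 4A+ and of the 23 in hmox1 were shared, as were 3 of the 6 rises in 4A+ and all 3 in hmox1. Over all tested genes 55% of such falls in 4A+ and 52.9% of those in hmox1 were shared, and 40.2% and 55.7% of the rises. No member moved at least 2-fold in opposite directions, and how many of all tested genes did so was not counted.

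**Figure D4:**
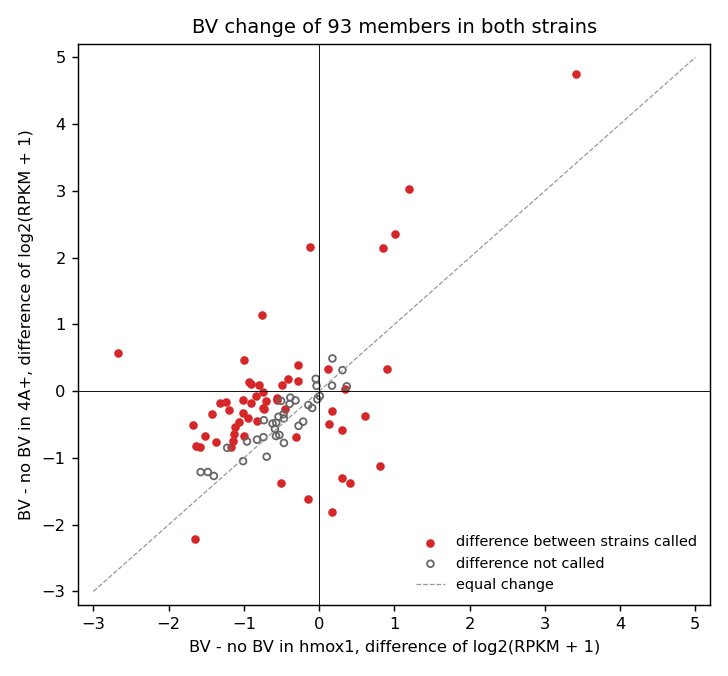
Log2 difference with BV in hmox1 (horizontal) and in 4A+ (vertical) for the 93 members, red where the difference between the strains had an adjusted p under 0.05. Points on the dashed line changed equally. Most points lie in the lower left, where both strains have lower levels with BV, and Cre13.g569400 lies at the upper right with 3.41 and 4.76.

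The strains differed in how far the members moved with BV. The test of that difference called 58 of 93 members, against 33.6% of all tested genes, 44 of them with a more negative response in hmox1 (47.3%), against 25.5%, and 14 with a more positive one, against 8.04%. Past 2-fold these were 14 and 5 members, against 2.95% and 1.39% of all genes, and 8 and 8 members with median-ratio factors, against 2.18% and 1.75%. Their median difference was -0.30, beside -0.12 for all genes. With median-ratio factors the split was 35 to 22, against 16.4% and 16% of all genes, and the median -0.14, beside 0.01 for all genes. The imbalance between directions was thus smaller after rescaling and past 2-fold it was gone.

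The most negative differences were those of Cre13.g566850, Cre10.g445000 and Cre06.g287050. Cre13.g566850 fell by 2.68 on the log2 scale in hmox1 and rose by 0.57 in 4A+, where BV libraries had 7.78 and 6.9 RPKM, against 4.58 and 4.64 RPKM (difference -3.25, SE 0.17, adjusted p = 9.92e-11). Cre10.g445000 had 28.3 and 33.9 RPKM in hmox1 with BV, against 34.82 and 32.98 RPKM without, a change that was not called (-0.13, adjusted p = 0.183, or -0.25, adjusted p = 0.0191 without replicate 2 of hmox1 with BV) beside its rise in 4A+ (difference -2.28, SE 0.11, adjusted p = 2.98e-11). Cre06.g287050 moved in opposite ways, with 3.52 and 3.82 RPKM in hmox1 with BV, against 6.47 and 7.38 RPKM without, and 7.78 and 7.58 RPKM in 4A+ with BV, against 2.82 and 3.06 RPKM without (difference -1.90, SE 0.12, adjusted p = 1.17e-09).

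The most positive differences were those of g15615, Cre06.g293900 and Cre16.g683550. They were also lower in hmox1 without BV, but both values use the same 4 libraries without BV with opposite signs, so nothing is read from that. In hmox1, g15615 had 29.63 and 33.41 RPKM with BV, against 25.77 and 29.87 RPKM without, libraries that overlapped (0.18, adjusted p = 0.0408, and between 0.0504 and 0.402 when any of 4 libraries was left out), beside its fall of 1.81 in 4A+ (difference 1.99, SE 0.1, adjusted p = 4.29e-11). Cre06.g293900 rose in hmox1, to 6.38 and 7.58 RPKM with BV, against 3.29 and 3.81 RPKM without, and fell in 4A+, to 4.36 and 5.06 RPKM with BV, against 11.01 and 11.76 RPKM without (difference 1.93, SE 0.12, adjusted p = 1.07e-09). Cre16.g683550 had 28.5 and 26.61 RPKM in hmox1 with BV, against 15.87 and 26.17 RPKM without, and 21.94 and 23.42 RPKM in 4A+ with BV, against 58.29 and 62.72 RPKM without (difference 1.79, SE 0.2, adjusted p = 9.28e-06). For all 3, the 4A+ libraries without BV stood above the 6 other libraries.

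**Figure D5:**
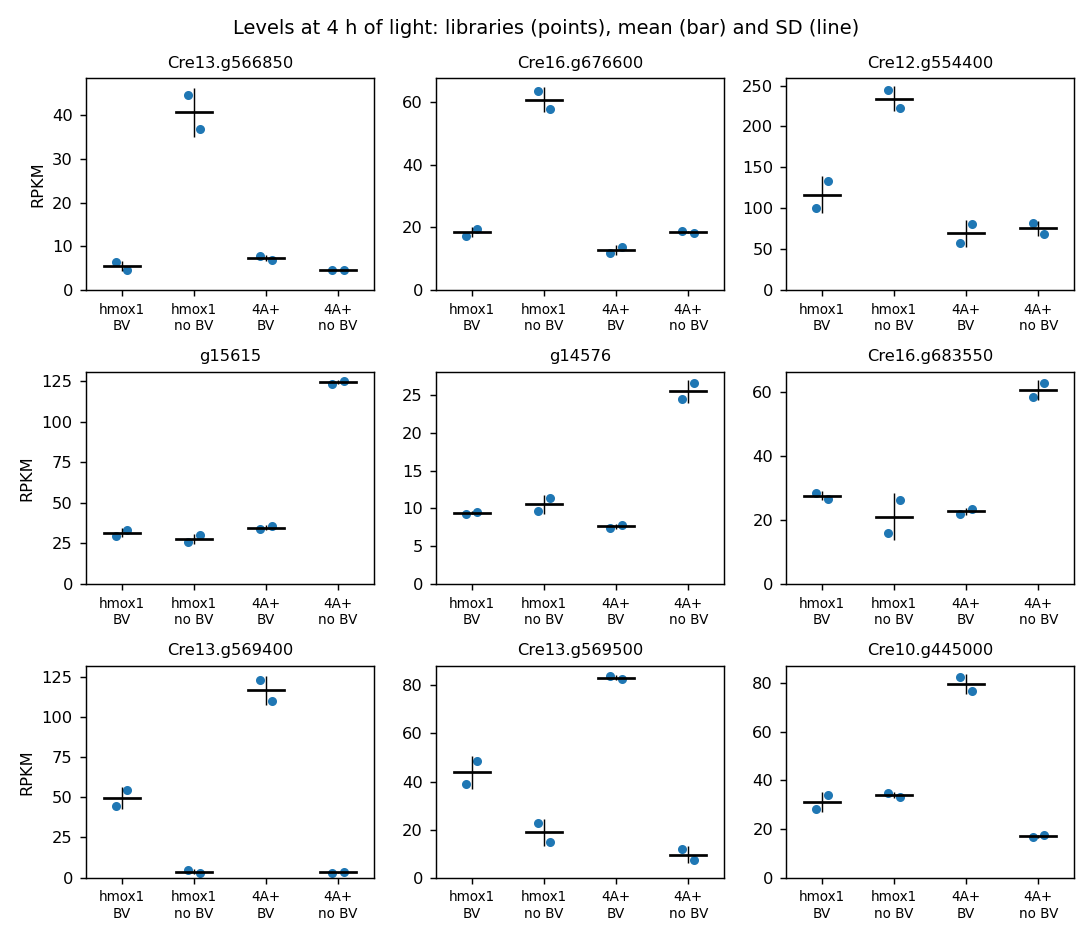
RPKM of 9 members at 4 h of light in hmox1 with BV, hmox1 without BV, 4A+ with BV and 4A+ without BV, with libraries as points, the mean as a bar and the SD as a line. The top row holds members highest in hmox1 without BV, the middle row members highest in 4A+ without BV, and the bottom row members highest in 4A+ with BV, at 116 RPKM for Cre13.g569400.

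With BV in the medium, the strains lay closer together. By limma 54 of 93 members were higher in hmox1 (58.1%), against 34.9% of all tested genes, and 8 were lower, against 15%, or 62 in either direction, against 49.9%. With a 2-fold limit 9 were higher, against 3.89% of all genes, and 2 were lower, against 0.995%. The median log2 difference was 0.35 for the members and 0.10 for all genes, and with median-ratio factors it was 0.22 and -0.03, with 46 members higher and 15 lower, against 24.1% and 27.4% of all genes. The strain comparisons with and without BV share no library. Of the 69 members higher in hmox1 without BV and the 54 higher with BV, 47 were the same, or 68.1% and 87%, where all tested genes had 54% and 82.7%. None of the 10 members lower without BV was among the 8 lower with BV, an overlap that was not counted over all tested genes. A fall with BV in both strains together with a higher level in hmox1 in both media was seen for 19 members (20.4%), against 3.66% of all tested genes. That count uses each group more than once and was not rescaled.

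Members higher in hmox1 with BV had in part the same excess without it. Cre10.g443950 had 31.85 and 31.15 RPKM in hmox1 with BV, against 7.25 and 7.94 RPKM in 4A+ with BV (log2 difference 1.92, SE 0.07, adjusted p = 8.15e-14). Cre10.g431400 had 13.84 and 15.03 RPKM in hmox1, against 4.59 and 4.75 RPKM in 4A+ (1.44, SE 0.09, adjusted p = 3.45e-10), and Cre12.g500550 had 53.16 and 61.76 RPKM, against 18.25 and 23.42 RPKM (1.43, SE 0.1, adjusted p = 2.75e-09). Without BV their log2 differences were 1.35, 1.67 and 1.34 (adjusted p = 1.25e-11, 4.01e-11 and 4.64e-09). Cre10.g443950 rose with BV in both strains by limma, by 0.33 in 4A+ and 0.90 in hmox1 (adjusted p = 0.000437 and 2.47e-09). With BV in 4A+, Cre10.g431400 and Cre12.g500550 had log2 differences of 0.18 and 0.08 (adjusted p = 0.0934 and 0.508), called only when replicate 1 of 4A+ without BV (0.37, adjusted p = 0.00152) or of 4A+ with BV (0.25, adjusted p = 0.0471) was left out.

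Only 2 members were at least 2-fold lower in hmox1 with BV. Cre10.g445000 had 28.3 and 33.9 RPKM in hmox1, against 82.43 and 76.74 RPKM in 4A+ (log2 difference -1.33, SE 0.08, adjusted p = 1.26e-10). Cre13.g569400 had 44.86 and 54.19 RPKM in hmox1, against 122.72 and 109.97 RPKM in 4A+ (-1.22, SE 0.13, adjusted p = 7.88e-07). Both had risen with BV in 4A+, but that comparison uses the same 4A+ libraries with BV, so nothing is read from it. Cre13.g569400 had risen in hmox1 too.

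In none of these 4 comparisons of 2 groups were Cre01.g016600, Cre10.g457900 and g17719 called, and they are named for that reason after their values were seen, a pattern shared by 10.3% of all tested genes. All 4 comparisons called 33 of the 93 members (35.5%), against 19.2% of all tested genes. For Cre01.g016600, levels at 4 h were 0.51 and 0.83 RPKM in hmox1 with BV, 0.61 and 2.63 RPKM in hmox1 without BV, 0.67 and 0.41 RPKM in 4A+ with BV, and 1.84 and 0.41 RPKM in 4A+ without BV. Its standard error of 0.36 in each comparison was wide, and without replicate 1 of hmox1 without BV its log2 difference with BV in hmox1 was -1.13 (adjusted p = 0.0144).

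Some members are neighbours on a chromosome. Fewer than 80% of the members could be placed in the RefSeq Chlamydomonas_reinhardtii_v5.5 gene order, so no count of neighbours is given, and the pairs below were picked for their position. Cre13.g569350 is next to Cre13.g569400, and 1 gene lies between Cre13.g569400 and Cre13.g569500. With BV in 4A+, Cre13.g569400 and Cre13.g569500 rose by 4.76 and 3.02 on the log2 scale, while Cre13.g569350 averaged 22.8 ± 0.721 RPKM with BV and 21.3 ± 1.38 RPKM without (SD, n = 2 each; log2 difference 0.09, adjusted p = 0.29). The adjacent IDs Cre16.g683500 and Cre16.g683550 both fell by 1.38 with BV in 4A+ (adjusted p = 1.56e-09 and 9.5e-07), and in hmox1 their log2 differences were -0.50 and 0.41 (adjusted p = 0.000378 and 0.0227). That rise of Cre16.g683550 was lost without any of 3 single hmox1 libraries (adjusted p between 0.0546 and 0.417). Cre07.g352750 and Cre07.g352800, also adjacent, fell by 1.01 and 1.63 with BV in hmox1 (adjusted p = 3.42e-10 and 3.78e-09). In 4A+ their log2 differences with BV were -0.33 and -0.83 (limma, adjusted p = 0.000297 and 1.34e-05). Falls with BV were called for 68.8% of the members in hmox1 and 55.9% in 4A+, against 37.7% and 27.4% of all tested genes. None of these pairs overlaps in that assembly.

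Genes with the same early rise but a lasting one offer the closest comparison, and the lists are set side by side with no test between them. With BV 88 of the 103 lasting early genes fell in 4A+ and 89 in hmox1 (85.4% and 86.4%), against 27.4% and 37.7% of all tested genes. The median log2 differences of the lasting genes were -0.69 and -0.87, both further from 0 than those of the transient genes. Without BV the order was the other way round. Of the 103 lasting early genes 54 were higher in hmox1 (52.4%), against 53.5% of all tested genes, and 23 lower (22.3%), against 11.8%. The median of the lasting genes was 0.21, close to the 0.24 of all genes. With median-ratio factors that median was -0.12, whereas the 0.37 of the transient members kept its sign. Of the 28 late-rising genes, 8 were higher and 4 lower in hmox1 without BV (28.6% and 14.3%, against 53.5% and 11.8% of all genes, median 0.05). With BV in hmox1 24 of the late-rising genes fell (85.7%, against 37.7% of all genes, median -1.05).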

How the data were processed

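STAR 2.3.0 and HTSeq are named in the submitters' processing notes without their roles, and the sources used here give no genome build, annotation or strand setting. The authors' single deposited table has a column per library, and its RPKM unit (reads scaled by gene length and library total) was inferred because neither header nor labels name one. Column sums ran from 718144 to 797204. Relative depth was taken from 155 low genes, as the library factors that make their values whole multiples of a step, which 99.1% of 1612 values met within 0.1. Members and comparison lists were chosen with earlier results of these data known. limma 3.58.1 in R 4.3.3 was run on log2(RPKM + 1) of 13871 genes with a mean per group over all 20 libraries, a mean-variance trend and robust moderation (10 residual degrees of freedom). P-values were Benjamini-Hochberg adjusted over all tested genes within each of 5 comparisons, with a threshold of 0.05, and 2-fold means a log2 difference of 1. The test was checked on simulated data. Named members are the 12 largest in E, the 6 highest at 0.5 h, up to 3 rises and 3 falls per comparison past 2-fold with no overlap between libraries, and those at the thresholds. A planned search for motifs and named families was not made, as no sequences or names are used here.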

Additional observations from a re-analysis of the deposited data

Results flagged for a closer look

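The BV response of 13 named members differed between the strains at an adjusted p under 0.05 (limma) and by at least 2-fold. They were named largely for such changes. Over all 93 members 14 were more negative and 5 more positive past 2-fold, against 2.95% and 1.39% of all tested genes, and 8 and 8 with median-ratio factors. Values are the response in hmox1 minus that in 4A+, on the log2(RPKM + 1) scale, with both groups of each strain having 2 libraries. More negative in hmox1 were Cre13.g566850 (-3.25), Cre10.g445000 (-2.28), Cre06.g287050 (-1.90), Cre13.g569500 (-1.83), Cre13.g569400 (-1.35), Cre07.g342506 (-1.35), Cre07.g342500 (-1.29) and Cre16.g676600 (-1.17). More positive in hmox1 were g15615 (1.99), Cre06.g293900 (1.93), Cre16.g683550 (1.79), Cre13.g604200 (1.60) and g14576 (1.48).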

How the results depend on the processing

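Median-ratio size factors gave 159 members in place of 93, and a pseudocount of 0.1 gave 116. Over the 93, the size factors gave 16 lower in hmox1 without BV (17.2%, against 30.6% of all tested genes) and 15 with BV (16.1%, against 27.4%). The size factors also gave 22 with a more positive BV response in hmox1 (23.7%, against 16% of all genes). Under them the median log2 difference of the members was 0.37 for hmox1 against 4A+ without BV, 0.22 with BV, -0.45 for BV in hmox1 and -0.14 for the difference of the BV response. A pseudocount of 5 shrank the medians to 0.48, 0.21, -0.43 and, for BV in 4A+, -0.19. With members chosen on rescaled values, an alternative added after seeing the data, the medians were 0.58 for hmox1 against 4A+ without BV and -0.24 for BV in 4A+ on deposited values, and 0.26 and -0.29 on rescaled ones. No median changed sign in these settings. Among single genes, Cre16.g657350 was 0.29 higher in hmox1 without BV and -0.0416 with median-ratio factors. Leaving out each library of 4A+ and hmox1 in turn left between 66 and 72 members higher in hmox1 without BV, and between 45 and 55 falling with BV in 4A+ and 58 and 65 in hmox1. The rule without single libraries gave 88 to 97 members. Same-numbered libraries were not treated as pairs. Their deviations correlated between -0.039 and 0.238 over the 6 pairs of 4A+ and hmox1 groups, with 3 pairs over 0.1. Over the 45 pairs of all 10 groups the range was -0.098 to 0.330, with 16 over 0.1. Whether replicate numbers mark a pairing was not tested. A replicate block moved the members higher in hmox1 with BV to 56 and those falling with BV in hmox1 to 63. No shares of all tested genes are given for the block or for the counts with a library left out. Depth limits members near 1 RPKM, where 1 library can decide a difference.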
